A study of Rattus norvegicus with 6 samples.

Results

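The miR-181 family was followed through small RNA libraries of 6 clonal rat INS-1 lines, insulin-secreting tumour cells kept in culture and studied in place of β-cells. Its genes were chosen by symbol alone, as the rows named Mir181 with a letter from a to d and an optional copy number. This gave 5 genes of the 32883 in the table, and 458 genes of the table were miRNAs by symbol. They were Mir181a2, Mir181b1, Mir181b2, Mir181c and Mir181d, and Mir181a-1 was not analysed here. All 5 had reads in every library and averaged 5 or more normalized reads, the filter applied to all genes (a normalized read is a count divided by the size factor of its library).

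The parental cells, INS-1(832/13)::mCherry, carry a human INS transgene and a mouse Ins2 transgene fused to mCherry. The 3 control lines (5-9, 2 and 16, labelled Control 1 to 3) lack the Prader-Willi syndrome (PWS) imprinted domain on the silent maternal copy, and the 3 PWS lines (3, 19-1 and 19-4, labelled PWS 1 to 3) lack it on the active paternal copy as well. Every line was grown in 7.5 mM glucose with no further treatment, and each gave 1 library. The maternal deletion is thus shared by all lines. Control lines 2 and 16 and all PWS lines descend from line 5-9, and PWS line 3 has a larger deletion than was designed. Each line is a clone, and lines 19-1 and 19-4 are subclones of a single edited line, so the p-values measure the spread between clones of which that pair is not independent.

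Family members of miR-181 are processed from hairpin precursors, and the mature strand is loaded onto an Argonaute protein that it guides to messenger RNAs. Pairing is set mainly by the seed, bases 2 to 8 of the mature strand, so members with the same seed can share targets. In mammals the genes lie in 3 paired clusters, a1 with b1, a2 with b2, and c with d. The family is best known from lymphocytes, where miR-181a tunes signalling of the T cell receptor by lowering phosphatases, and from brain and heart, where members have been tied to cell survival and to the endoplasmic reticulum chaperone GRP78 (gene Hspa5).

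The mature 5p strands show why the genes form a family and how little separates them. They are given 5′ to 3′ from the RefSeq table of build GRCr8, in which all 5 gene names were found, with the seed in capitals.
rno-miR-181a-5p: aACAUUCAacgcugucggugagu
rno-miR-181b-5p: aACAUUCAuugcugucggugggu
rno-miR-181c-5p: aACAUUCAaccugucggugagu
rno-miR-181d-5p: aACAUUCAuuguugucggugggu
The seed ACAUUCA was common to these strands, and 0 of the 724 mature entries in the table carried it outside the family. Counting positions from 1 at the 5′ end, miR-181b-5p differed from miR-181a-5p by A9U, C10U and A21G. The d strand differed from the b strand by the single substitution C12U. Removing base 11 of miR-181a-5p, a G, gives miR-181c-5p. By sequence, a therefore pairs with c and b with d, whereas by position c pairs with d.

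The precursors of the 2 clusters with both partners measured are shown because the results below set the partners against each other. Capitals mark the annotated mature arms, and in Mir181b2 the stretch identical to miR-181b-5p.
Mir181c: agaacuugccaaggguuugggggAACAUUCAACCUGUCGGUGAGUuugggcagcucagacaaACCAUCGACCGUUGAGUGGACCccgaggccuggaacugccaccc
Mir181d: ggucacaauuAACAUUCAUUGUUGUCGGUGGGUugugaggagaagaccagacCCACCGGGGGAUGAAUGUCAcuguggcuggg
Mir181a2: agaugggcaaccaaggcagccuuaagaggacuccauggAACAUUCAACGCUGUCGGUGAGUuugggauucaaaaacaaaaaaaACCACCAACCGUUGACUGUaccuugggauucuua
Mir181b2: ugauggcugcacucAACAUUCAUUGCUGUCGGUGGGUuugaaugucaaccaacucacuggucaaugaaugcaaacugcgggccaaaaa
In GRCr8, Mir181c and Mir181d follow each other on chromosome 19, between a group of miRNA genes (Mir24-2, Mir27a and Mir23a) and the germ cell gene Nanos3. Mir181a2 and Mir181b2 lie on chromosome 3 inside Nr6a1, an orphan nuclear receptor gene, on the opposite strand to it, and within the annotated LOC120101539. Mir181b1 lies on chromosome 13 next to Mir181a-1, inside the non-coding gene LOC108352541. As Mir181a2 and Mir181a-1 hold the same 5p strand, and Mir181b1 and Mir181b2 likewise, reads of those strands cannot be assigned to a single locus by sequence. HTSeq was set to count ambiguous reads for every gene in one deposited table and for none in the other, and all 5 genes held the same reads in both, so no read of theirs was treated as ambiguous at that step. How the aligner placed reads of a shared strand is not given in the sources used here, and such reads may be missing from the values of a2, b1 and b2 or credited to Mir181a-1 or to the partner locus. Levels and shares of these 3 genes are therefore less certain than those of c and d. All values join the 5p and 3p strands of a gene.

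Library depth ran from 7373691 recovered reads in PWS line 19-4 to 16480475 in PWS line 3. The labels were checked with Snord116, the snoRNA family of the deleted domain, whose summed level was 5557 to 8804 normalized reads where the paternal copy was present and 1.78 to 3.96 where it was deleted. Of 10 β-cell markers examined, 9 had reads in every library, with Mir375 at 558022 to 833397 normalized reads, but Ins2, an insulin gene, was at 0 in PWS line 19-4. Fragments of Ins2 stood at 22.7, 10.5 and 30.1 normalized reads in control lines 5-9, 2 and 16 and at 16.0 and 6.30 in PWS lines 3 and 19-1. The log2 difference was -2.03 for Ins2 (limma unadjusted p 0.0150, adjusted p 0.727) and -0.61 for Ins1 (adjusted p 0.860), with overlapping groups for both. The paper found both mRNAs lower in PWS lines by droplet digital PCR, though not significantly by RNA sequencing. The hormone genes of other islet cells (Gcg, Sst and Ppy) were at 0 in every library. Cpa1 and Prss1 of acinar cells and Mir145 of smooth muscle were at 0 as well. Other marker lists had summed levels far below Mir375, with 2 of 3 blood markers (chiefly Mir142) at 44.3 to 73.2 normalized reads for control and 43.1 to 76.5 for PWS lines, and the endothelial Mir126a at 13.9 to 32.5 and 18.5 to 35.6. Such levels are not low beside the scarcer family members. Mir142 had a mean over all libraries of 60.1, below Mir181a2 (80.7) but above Mir181b2 (46.6) and Mir181b1 (26.0). Mir143 of fibroblasts stood at 13.1 to 39.4 and 35.7 to 48.8, the muscle list (2 of 4 found) summed to at most 2.61, and the acinar list to at most 15.4. The part of these cell types in the results was not tested.

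Most of the reads counted for the 5 genes belonged to the c/d cluster, with the limit that reads of the shared a and b strands may not all have been counted. Mir181c and Mir181d together held 98.2% ± 0.378 of the family's normalized reads in control lines, and this share was 97.2% ± 0.499 in PWS lines (SD, n = 3). The a2/b2 cluster held 1.47% ± 0.294 and 2.41% ± 0.451, and Mir181b1, here the sole measured gene of the a1/b1 cluster, held 0.355% ± 0.126 and 0.414% ± 0.113 (SD, n = 3). Because of that limit, these shares do not give the abundance of the mature a and b strands in the cells.

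Divided by the length of the annotated precursor, the control means in normalized reads per base were 51.6 for Mir181d and 30.1 for Mir181c. They were 0.560 for Mir181b2, 0.515 for Mir181a2 and 0.247 for Mir181b1. Mir181d lay above Mir181c in all 6 libraries on this scale, and each lay far above the other 3 genes. Mir181a2 and Mir181b2 did not differ beyond their spread in control lines, whereas Mir181a2 was the higher in every PWS line (means of 0.865 and 0.498 per base). Among the 458 miRNA genes, ranked by control mean without division by length, Mir181d was number 88, Mir181c 94, Mir181a2 192, Mir181b2 194 and Mir181b1 220. The whole family took 0.0786% ± 0.00917 of miRNA reads in control lines, against 0.0675% ± 0.00570 in PWS lines (SD, n = 3), with overlapping ranges.

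**Figure D1:**
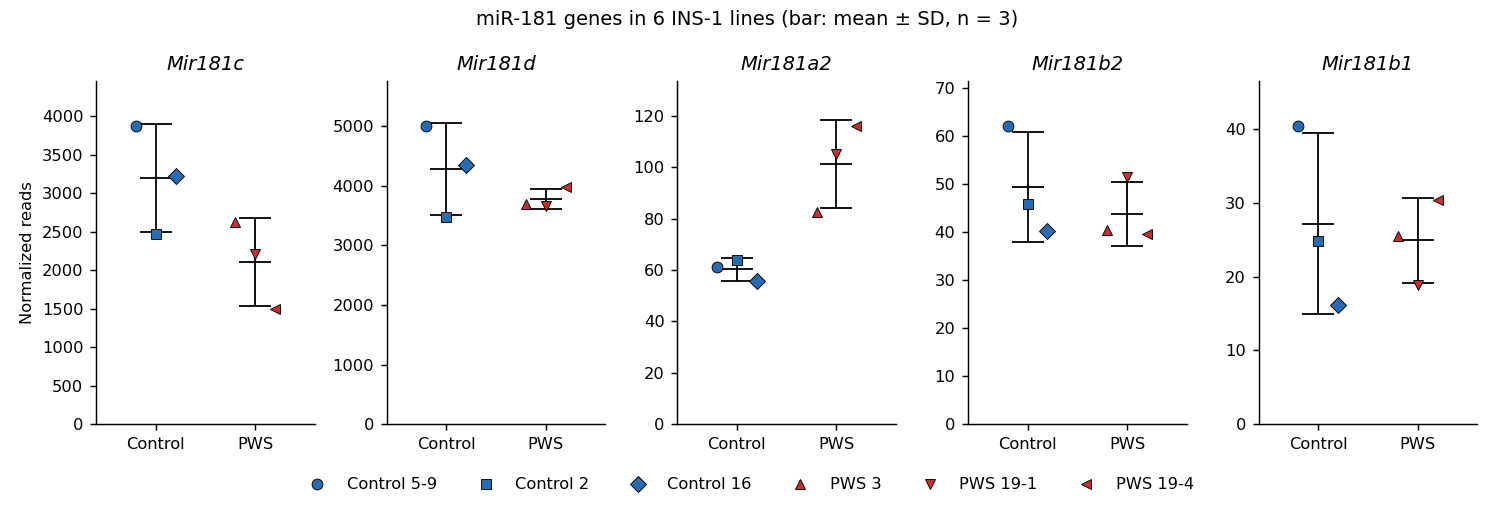
Normalized reads (vertical axes, each from 0) of the 5 miR-181 genes in 3 control lines (blue) and 3 PWS lines (red); points are lines, horizontal bars the mean and error bars the SD. Only Mir181a2 has groups that do not overlap, with PWS lines at 82.6 to 116 and control lines at 55.6 to 64.1.

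The genotype question was whether any miR-181 gene differed between control and PWS lines. None did by the test across all genes, limma on log2(normalized reads + 1) with Benjamini-Hochberg adjustment: 0 of 5 had an adjusted p under 0.1, against 1.28% of the 4292 genes tested. All 55 genes that limma called were lower in PWS lines. The paper places nearly all of its own called small RNAs in the deleted domain, so this share may be a poor background for genes outside it. edgeR and DESeq2 on the recovered reads also called 0 of 5, against 1.35% of all genes in each. At an unadjusted p under 0.05, limma counted 2 of 5 (Mir181a2 and Mir181c, which lay in opposite directions), edgeR 2 and DESeq2 1, beside 5.96%, 5.22% and 3.22% of all genes tested and 15.4%, 14.7% and 10.8% of the 259 miRNA genes among them. With lines 19-1 and 19-4 averaged into 1 sample, limma counted 0 of 5, and unadjusted p was 0.0542 for Mir181a2 and 0.0657 for Mir181c. The median log2 difference was -0.15 for the 5 genes, -0.14 for the miRNA genes and 0.0048 for all genes.

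Mir181c, the second gene of the family by level, stood at 3878, 2476 and 3228 normalized reads in control lines 5-9, 2 and 16, and at 2627, 2212 and 1500 in PWS lines 3, 19-1 and 19-4. Control line 2 lay below PWS line 3, so the groups overlapped, and line 19-4 was the lowest of all. The means were 3194 ± 701 and 2113 ± 570 (SD, n = 3). The log2 difference of PWS minus control was -0.61 ± 0.26 (SE), with a 95% interval of -1.17 to -0.051 and a limma adjusted p of 0.831. Without line 19-4 the log2 difference was -0.38.

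Its neighbour Mir181d had 5003, 3483 and 4353 normalized reads in the control lines and 3700, 3667 and 3975 in the PWS lines, in the same order. All PWS lines lay inside the control range, and they were close to each other. The means were 4280 ± 763 and 3781 ± 169 (SD, n = 3), with a log2 difference of -0.16 ± 0.22 (SE), an interval of -0.64 to 0.31 and a limma adjusted p of 0.918.

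Mir181a2 had the opposite direction. It stood at 61.1, 64.1 and 55.6 normalized reads in control lines 5-9, 2 and 16 and at 82.6, 105 and 116 in PWS lines 3, 19-1 and 19-4, from 49 to 139 reads per library. Every PWS line lay above every control line. Mir181a2 was thus the 1 member of 5 whose groups did not overlap, beside 4.87% of all tested genes that lay apart in this direction and 6.29% in the other. Among the 259 miRNA genes, 15.8% lay apart in either direction, so 1 of 5 is near the background of the class. The means were 60.2 ± 4.31 and 101 ± 17.1 (SD, n = 3). The log2 difference was 0.73 ± 0.30 (SE), with an interval of 0.099 to 1.36 and a limma adjusted p of 0.831.

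Mir181b2, its partner on the same strand, had 62.0, 45.8 and 40.1 normalized reads in the control lines and 40.4, 51.5 and 39.6 in the PWS lines. The groups overlapped, and control line 5-9 was the highest. Its log2 difference was -0.15 ± 0.32 (SE), with an interval of -0.84 to 0.53 and a limma adjusted p of 0.951. Mir181b1, the least abundant gene, had 40.4, 24.8 and 16.2 normalized reads in the control lines and 25.5, 18.9 and 30.3 in the PWS lines, from only 18 to 43 reads per library. The PWS values fell within the range of the controls, and the log2 difference was -0.051 ± 0.39 (SE), with an interval of -0.87 to 0.77 and a limma adjusted p of 0.986.

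**Figure D2:**
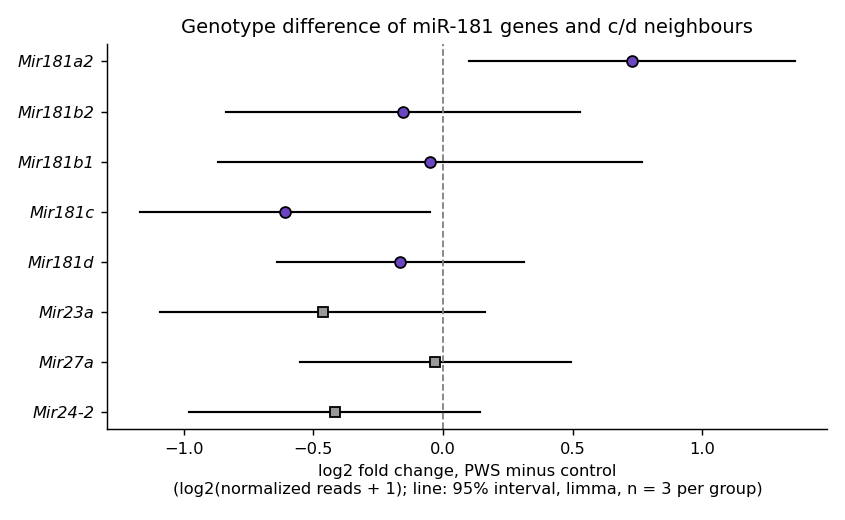
Log2 fold change of PWS minus control lines (horizontal axis; points, with 95% intervals from limma as lines, n = 3 per group) for the 5 miR-181 genes (circles) and the 3 miRNA genes next to the c/d cluster (squares). The intervals of Mir181a2 and Mir181c leave out 0 before adjustment, on opposite sides, which does not hold with lines 19-1 and 19-4 averaged (p of 0.0542 and 0.0657), and no gene shown has an adjusted p under 0.1.

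Summed by cluster, the c/d genes had 7474 ± 1464 normalized reads in control lines against 5894 ± 426 in PWS lines, and the a2/b2 genes had 110 ± 13.7 against 145 ± 19.1 (SD, n = 3). Control line 5-9 was the highest for c/d at 8881 and control line 2 was at 5959, within the span of the PWS lines (5475 to 6327). For a2/b2 the control lines ran from 95.7 to 123.1 and the PWS lines from 122.9 to 157. Neither pair of ranges separated, since control line 5-9 and PWS line 3 met in the a2/b2 total. Summed by mature letter, the b genes together gave 76.5 ± 23.6 and 68.7 ± 2.44 (SD, n = 3). This sum removes a split of shared b reads between the loci, but not reads left out. No such sum was available for the a strand.

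Ratios of partners within a library do not depend on the size factor. They were examined after the values above had been seen and are given without a test, as undivided reads, so that only their change between libraries is read. The ratio of Mir181c to Mir181d was 0.775, 0.711 and 0.742 in control lines 5-9, 2 and 16, and 0.710, 0.603 and 0.377 in PWS lines 3, 19-1 and 19-4. The control ratios lay close together (SD 0.0320), line 3 stood next to them, and the subclones of line 19 stood below, 19-4 farthest. As a share of the reads of the pair, Mir181c took 41.6% in control line 2 (exact 95% binomial interval 40.1 to 43.0) and 41.5% in PWS line 3 (40.6 to 42.5), which counting error cannot separate. It took 37.6% in line 19-1 (36.4 to 38.9) and 27.4% in line 19-4 (26.0 to 28.8), below the interval of every control line, whose lowest bound was 40.1. Intervals cover counting error only.

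The ratio of Mir181a2 to Mir181b2 was 0.984, 1.40 and 1.38 in control lines 5-9, 2 and 16, and 2.04, 2.04 and 2.93 in PWS lines 3, 19-1 and 19-4. The PWS lines were all above the controls, including line 3. Mir181a2 by itself also lay apart, so the ratio is not a separate result. How many other pairs of miRNA genes have ratios that lie apart was not computed. Few reads stood behind it. Mir181a2 took 58.3% of 84 reads in control line 2 (interval 47.1 to 69.0) and 67.1% of 207 reads in PWS line 3 (60.3 to 73.5), so the nearest lines overlapped in counting error. In line 5-9 the share was 49.6% (40.5 to 58.7) and in line 19-4 it was 74.6% (65.7 to 82.1), and those intervals did not meet.

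**Figure D3:**
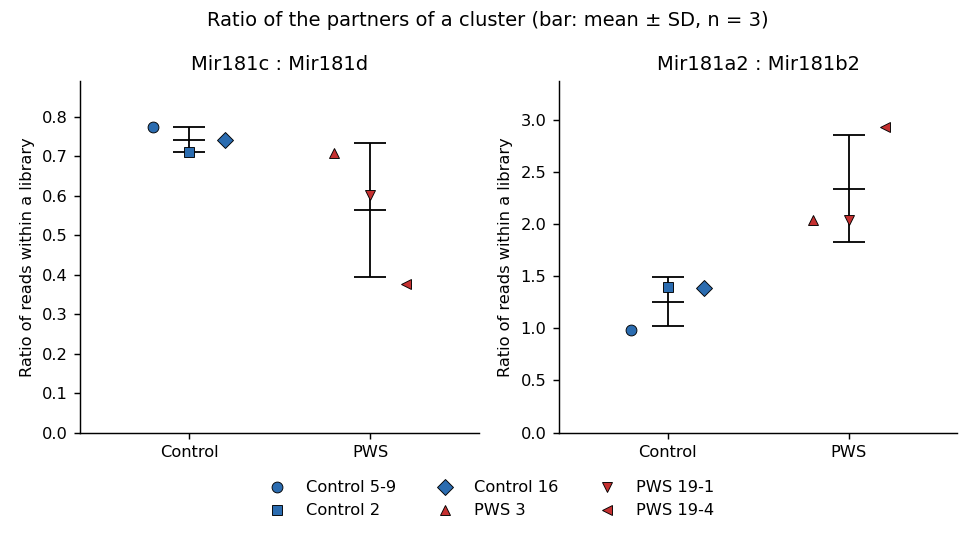
Ratio of reads within each library (vertical axes, from 0) for Mir181c to Mir181d (left) and Mir181a2 to Mir181b2 (right) in 3 control lines (blue) and 3 PWS lines (red); horizontal bars are the mean and error bars the SD. The left ratio is 0.711 to 0.775 in controls and goes down to 0.377 in line 19-4, and the right ratio is 0.984 to 1.40 in controls and 2.04 to 2.93 in PWS lines.

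The genes next to the clusters were examined for the same line pattern. Mir23a, the closest miRNA gene upstream of the c/d pair, had 6044, 4335 and 4988 normalized reads in control lines 5-9, 2 and 16 and 5430, 4229 and 2170 in PWS lines 3, 19-1 and 19-4. Line 19-4 was the lowest there as it was for Mir181c. The low value was not confined to the neighbours. Mir96, outside the neighbours examined, had 22781, 17005 and 20403 in control lines 5-9, 2 and 16 and 19313, 14594 and 10108 in PWS lines 3, 19-1 and 19-4. Mir24-2 ran from 8939 to 13188 in control lines and stood at 8681, 11315 and 5517 in PWS lines, again lowest in 19-4. Mir27a had 1701 to 2343 in control lines and 2233, 2053 and 1502 in PWS lines.

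Relative to the control mean on the log2 scale, line 19-4 stood at -1.07 for Mir181c, -1.23 for Mir23a, -0.98 for Mir24-2 and -0.37 for Mir27a, but at -0.091 for Mir181d. Mir181d, which lies between Mir181c and Nanos3, thus did not share the low value of line 19-4 seen in Mir181c and Mir23a. The ratio of Mir181c to Mir23a was 0.571 to 0.647 in control lines and 0.484 to 0.691 in PWS lines, that to Mir24-2 also overlapped, and that to Mir27a was 1.46 to 1.76 in control lines and lower in every PWS line, down to 0.999 in 19-4. The share of other gene pairs whose ratios lie apart was not computed, so nothing is read from that separation. Of the 6 neighbouring genes listed, these 3 miRNAs were tested and none was called, beside 1.28% of all genes tested. The smallest limma adjusted p was 0.860. Nanos3 was at 0 in every library, Ptprc, a leukocyte phosphatase gene beyond Mir181b1, had a read in line 19-4 alone, and Nr6a1 averaged 3.29 normalized reads, below the filter.

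**Figure D4:**
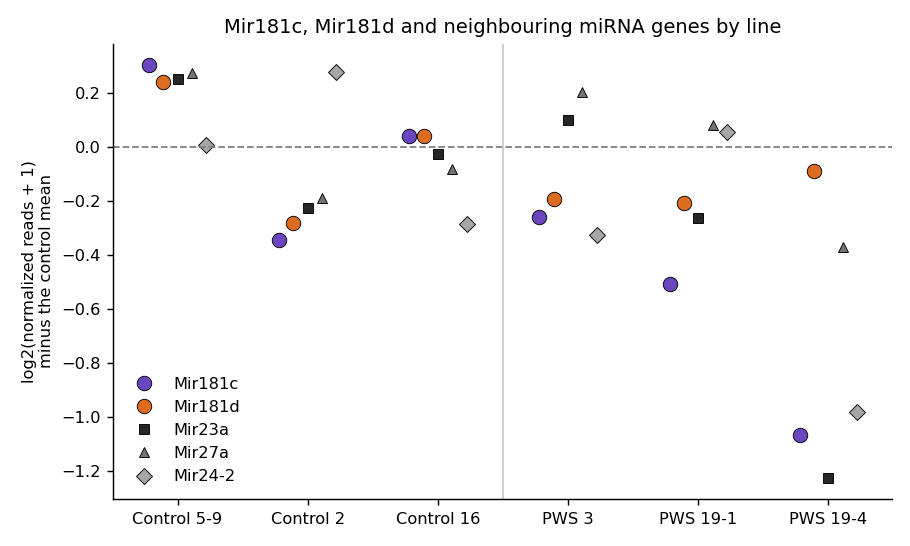
Log2(normalized reads + 1) minus the mean of the control lines (vertical axis) for Mir181c, Mir181d and the miRNA genes Mir23a, Mir27a and Mir24-2 in each line (horizontal axis), 1 point per gene and library. In line 19-4 Mir181c stands at -1.07 near Mir23a and Mir24-2, and Mir181d at -0.091.

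The miRNA genes whose pattern over the 6 lines was most like each cluster were sought among 175 miRNA genes outside the family that averaged 100 normalized reads or more. Likeness was the root mean square difference of log2 values, each centred on its own mean. For the c/d total they were Mir1839 (0.045), Mir503 (0.090) and Mir30a (0.10), against a median of 0.30 over all 175. For Mir181c alone, added after the data were seen, they were Mir96 (0.10), Mir500 (0.13) and Mir29b-3 (0.13), with a median of 0.36. Each of these was lowest in line 19-4, as Mir181c was. For the a2/b2 total they were Mir702 (0.13), Mir3559 (0.14) and Mir320a (0.15), with a median of 0.41. For Mir181b1 the closest were Mir879 (0.29), Mir345 (0.29) and Mir139 (0.31), with a median of 0.50. With only 18 to 43 reads of Mir181b1 per library, counting error alone limits how small this measure can be, so nothing is read from these values.

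Fragments of messenger RNAs in these libraries allowed a limited look at genes that make or carry miRNAs and at genes known as miR-181 targets elsewhere. Such fragments are not a measure of mRNA level. Of 14 genes for miRNA processing and effector proteins, 8 reached the filter and 0 were called, beside 1.28% of all genes tested, a count too small to read. Their log2 differences were -0.45 to 0.59 with a median of 0.15. Dgcr8, the partner of the nuclear processing enzyme Drosha, was the most abundant, at 481, 669 and 544 normalized reads in control lines 5-9, 2 and 16 and 484, 527 and 740 in PWS lines 3, 19-1 and 19-4. The groups overlapped, as they did for Tnrc6b and Tnrc6a, scaffold proteins of the silencing complex (log2 differences of -0.039 and 0.19), and for Ran, which drives nuclear export (0.36).

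Of 23 known targets, 21 were found, 9 reached the filter and 0 were called, beside 1.28% of all genes tested. With so few genes this count says little. The median log2 difference was -0.077. Mcl1 and Sirt1 were not analysed here. Hspa5, which encodes the chaperone GRP78, had 84.7, 131 and 106 normalized reads in control lines 5-9, 2 and 16 and 95.6, 71.4 and 56.7 in PWS lines 3, 19-1 and 19-4. Line 3 lay within the controls and the subclones of line 19 below them, with a log2 difference of -0.53 ± 0.32 (SE) and a limma adjusted p of 0.860. By assays of mRNA and protein, the paper reports Hspa5 mRNA and GRP78 as lower in these PWS lines. The fragments here do not bear on that. Mt-co1, a mitochondrial respiratory chain gene reported as a target of miR-181c in heart, ran from 2540 to 3051 in control lines and from 2275 to 3170 in PWS lines. Ptpn11, a phosphatase gene, and Xiap, an inhibitor of apoptosis, differed by 0.076 and 0.32 on the log2 scale, with overlapping groups.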

How the data were processed

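Small RNAs were measured by sequencing in 3 control and 3 PWS lines. The authors made libraries with a microRNA kit with molecular identifiers, collapsed duplicates with UMI-tools 1.0.0, trimmed with cutadapt 1.18, aligned with Bowtie2 2.3.4.2 to Rnor_6.0 and counted with HTSeq 0.11.2, per the labels. How the aligner placed reads with several equal alignments is not given in the sources used here. The deposited values are a signal in normalized reads, counts divided by the authors' DESeq2 size factor of each library. All values above 0 (100%, tolerance 0.001) were whole multiples of the smallest, so whole reads were recovered. The authors deposited 2 tables; that counting ambiguous reads for every gene was the main one, and all 5 members held the same reads in both. The deposited log2 fold changes, p-values and mean signal of the authors were not used.

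The test was limma-trend (limma 3.58.1, R 4.3.3) on log2(signal + 1), genes with a mean of at least 5, genotype as sole term, called at adjusted p under 0.1. edgeR 4.0.16 and DESeq2 1.42.0 were run on recovered reads, and the tests were checked on simulated data. Totals, shares and ratios have no test. The members and lists were chosen with earlier results of these data known. Genes named were all members, the called or the up to 4 most abundant genes of the neighbour, processing and target lists, and the 3 genes most like each cluster. The 3 genes most like Mir181c were added after the data were seen. Cell type markers stood outside this rule as a check, and of these Mir375, Ins1 and Ins2, as well as the neighbours Nanos3 and Ptprc, were named after their values were seen. No coordinates are given, since GRCr8 is not the build of the files.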

Additional observations from a re-analysis of the deposited data

How the results depend on the processing

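No miR-181 gene was called in any of 18 alternatives (other tests, pseudocounts of 0.5 and 5, filters, scalings, the second deposited table, a 0.05 threshold, a replicate block, averaged subclones and each line left out). The number of called genes overall was 41 to 66, and 44 to 58 with 1 line left out. Mir181a2 stayed higher in PWS lines in all 18 (log2 difference 0.62 to 0.87 with 1 line left out), and Mir181c (-0.79 to -0.38) and Mir181d (-0.30 to -0.043) stayed lower. The adjusted p ranged from 0.373 to 0.999 for Mir181a2 and from 0.652 to 0.999 for Mir181c. With 1 line left out, Mir181b1 ranged from -0.36 to 0.27 and Mir181b2 from -0.29 to 0.021: Mir181b1 changed sign without control line 5-9 (0.27) or PWS line 19-1 (0.13) and Mir181b2 without control line 5-9 (0.021), and the cause was not tested.

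The c/d total ranged from -0.48 to -0.19 and the a2/b2 total from 0.31 to 0.51 when 1 line was left out. On the log2 scale the ratio of Mir181c to Mir181d differed by -0.45, and by -0.18 without line 19-4, so much of that difference rests on 1 library. That of Mir181a2 to Mir181b2 differed by 0.89, and by 0.72 to 0.98 with 1 line left out. Both ratio checks were added after the data were seen. A replicate block in the fit gave 56 called genes, including the 55 called without it, and it changed no call among the members. The numbers do not pair the lines (correlations of 0.414, 0.218 and -0.0574 between lines of the same number over 1087 genes), and lines did not all correlate best with their own number. Low reads limit Mir181b1, Mir181b2 and Mir181a2, and 3 clones per group limit all.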
